A study of Homo sapiens with 12 samples.

Results

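The effect of folic acid (FA) in HT-29 cells was measured on 6 of the 12 arrays of the series, chosen by their cell line label: 3 arrays of treated cells and 3 of untreated cells. HT-29 is an established line of human colorectal adenocarcinoma, so every array comes from 1 line of tumour epithelium and holds no stroma, blood or normal mucosa. The treated cells, HT-29_10000, received 10000 ng/mL FA for 72 h in RPMI medium made without FA, the FA being dissolved in NaOH. The untreated cells, HT-29_0, stayed in the same FA-free medium with nothing added, so FA and its solvent cannot be told apart on these arrays. The other 6 arrays hold SW480, a further colorectal adenocarcinoma line under the same pair of conditions, and serve here for the estimate of the spread and for side-by-side values. The replicates are labelled biological and the cells were seeded in triplicate. Whether the triplicates were separate cultures is not stated, so a p-value here speaks only of variation among these arrays.

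Total RNA was hybridised to Human Transcriptome Array 2.0 chips, on which each locus is read as a transcript cluster of probes, and the values are log2 signals. The description covers the 23781 of 67528 clusters that carry a single gene symbol in the platform table, which stand for 22465 genes. An effect is the mean log2 signal of FA-treated arrays minus that of untreated arrays, so a value of 1 is a doubling. Tests used limma on the 4 groups of the series, with Benjamini-Hochberg adjustment across the 67528 clusters. An exact two-sided permutation test of 3 arrays against 3 cannot go below 0.1, so none is given for single genes. "Met the criteria" means an unadjusted p of at most 0.05 with a fold change of at least 1.5, the thresholds that the study used.

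Folate is taken up by a reduced folate carrier, by folate receptors and by a proton-coupled transporter, and is held in the cell as polyglutamates. Reduced folates carry 1-carbon units for purines, for thymidylate and for the remethylation of homocysteine to methionine, which feeds S-adenosylmethionine and hence the methylation of DNA, RNA and protein. FA itself is the oxidised vitamin and has to be reduced by dihydrofolate reductase before it enters these cycles. In the colonic crypt, dividing progenitor cells depend on this supply, while Notch signalling through HES1 keeps progenitors from becoming secretory cells.

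The third untreated array stood apart from the rest, so effects are given as a pair, with all arrays and without it, unless only 1 fit is named. Its SD over clusters was 1.86, against 2.17 to 2.20 on the other HT-29 arrays, and its correlations with them were 0.944 to 0.954, against 0.988 to 0.995 among the others. Among single-symbol clusters with a mean signal below 4 it read a median of 0.35 above its 2 companions, and at 10 and above a median of 0.89 below them, so the whole range was compressed. The second FA-treated array had the next largest share of clusters more than 0.5 away from its companions in the line, 6.11%, against 38.6% for the third untreated array. Many values are exactly equal between arrays to the 2 decimals given: 22.4% of single-symbol clusters read the same on all 3 FA-treated arrays and 5.7% on all 3 untreated arrays. None of the 31 clusters described first below had such ties within a group. Of 13 markers of colon epithelium, 9 had a mean above 6 in HT-29 (median 9.78), and 1 of 16 markers of blood cells, fibroblasts, endothelium and red cells did (median 4.02). The summed log2 signal of the colon markers was 126.6 to 128.5 on FA-treated and 121.4 to 127.0 on untreated arrays, and that of the other markers was 66.3 to 66.7 and 66.3 to 71.0 in the same order.

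No cluster passed the adjusted threshold in HT-29, with all 12 arrays (smallest adjusted p = 0.466) or without the third untreated array (smallest among single-symbol clusters 0.393), although 1090 and 724 single-symbol clusters had an unadjusted limma p under 0.05. No gene can therefore be said to have risen or fallen by that test, and the genes below are described by the criteria of the study. Array weights, which let each array count by its own precision, called 1239 single-symbol clusters, but that estimate did not converge and gave the first untreated array a weight of 14.8. With weights estimated gene by gene, chosen after seeing the data, 0 single-symbol clusters were called. With all arrays 272 single-symbol clusters met the criteria (1.14% of those tested), 214 of them higher with FA (0.9%) and 58 lower (0.244%). With each array centred on its own median, which moves the median effect of single-symbol clusters by more than 0.1 to 0.13, against -0.03 as deposited, the split was 340 higher and 24 lower. Without the third untreated array 73 did (0.307%), 15 higher (0.0631%) and 58 lower. The study, with its own annotation of transcripts, reported that lower genes predominated in HT-29. That is unlike the split of single-symbol clusters with all arrays, of which 21.3% were lower. Lower ones did predominate without the third untreated array, at 79.5%, and over all clusters with all arrays, at 57.3%. The reason for the unlike split was not tested. Over all clusters, named or not, 919 met the criteria with all arrays (1.36%), 392 higher (0.58%) and 527 lower (0.78%), and 477 without the third untreated array (0.706%), of which 64 were higher (0.0948%) and 413 lower (0.612%). With 1 cluster per gene, the base for the gene lists, 0.899% of genes were higher and 0.249% lower by the criteria with all arrays, and 0.0623% and 0.254% without the third untreated array.

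Of the 214 higher clusters 200 no longer met the criteria without the compressed array. With all arrays the median effect climbed with the signal, from -0.12 in clusters below 4 to 0.35 in clusters at 10 or above, and 133 of the 214 higher clusters had a mean signal of 8 or more. Without that array the medians lay between 0.00 and 0.04 in all 6 signal classes. The lower side was less tied to bright clusters. Protein-coding genes made up 195 of the 214 higher clusters with all arrays and 13 of the 15 higher ones without the third untreated array, but only 10 of the 58 lower ones without it. Those 58 held 17 microRNA loci, 10 pseudogenes, 7 long noncoding RNAs and 6 small nucleolar RNAs. Of 1087 microRNA loci tested, 1.75% met the criteria in that fit, against 0.127% of 18109 protein-coding clusters, and microRNA loci were dimmer, with a median signal of 4.24 against 5.52.

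**Figure D1:**
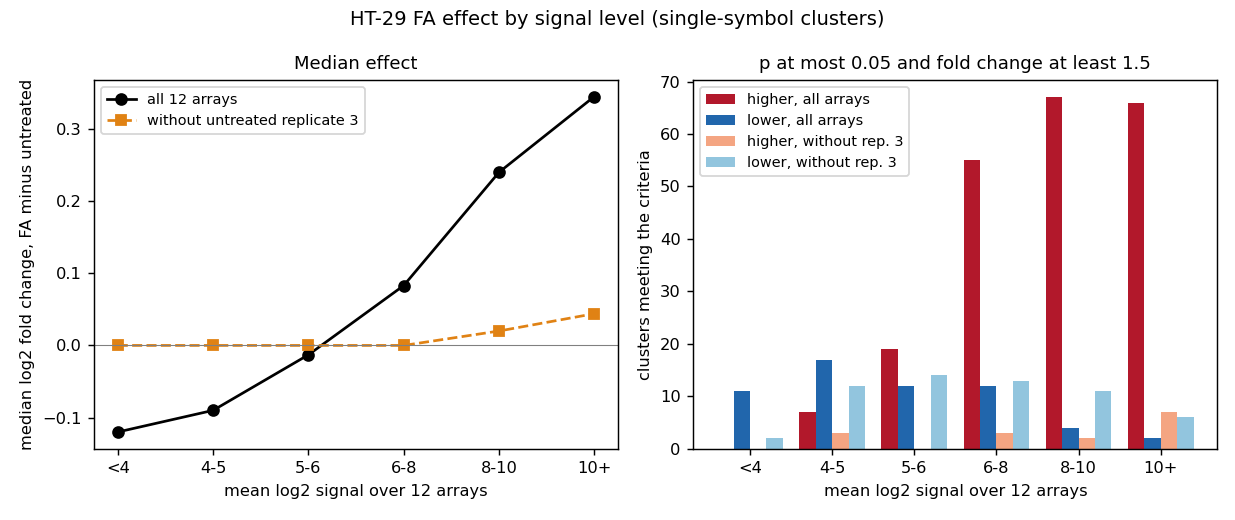
Left, median log2 fold change (FA minus untreated) of single-symbol clusters in 6 classes of mean log2 signal, with all 12 arrays (black circles) and without untreated replicate 3 (orange squares). Right, number of clusters in each class that met the criteria, higher or lower with FA, in both fits. With all arrays the median runs from -0.12 to 0.35 and without the array it stays between 0.00 and 0.04.

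Of the 272 and 73 clusters, 31 met the criteria in both fits and in the same direction, 14 higher and 17 lower with FA. They are 11.4% of the larger set, 42.5% of the smaller set and 0.13% of all single-symbol clusters. In 23 of them (0.0967% of those tested) the 3 FA-treated arrays lay wholly above or wholly below the 3 untreated arrays, 13 above and 10 below. Over all single-symbol clusters 3.69% were separated in this way, 1.88% above and 1.8% below. The second FA-treated array was the highest of its group in 12 of the 14 higher clusters and the lowest in 14 of the 17 lower ones. When it was left out together with the third untreated array, a variation chosen after seeing the data, 10 of the 31 still met the criteria. All 31 kept their direction, which is no independent support since they were picked on these same arrays. Those 10 were HES1, MIR4760 and a BRD2 cluster on the higher side and MIR3682, CHORDC1P4, DEFB131B, RNA5SP117, RPS15AP10, HMOX1 and RNA5SP471 on the lower side.

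**Figure D2:**
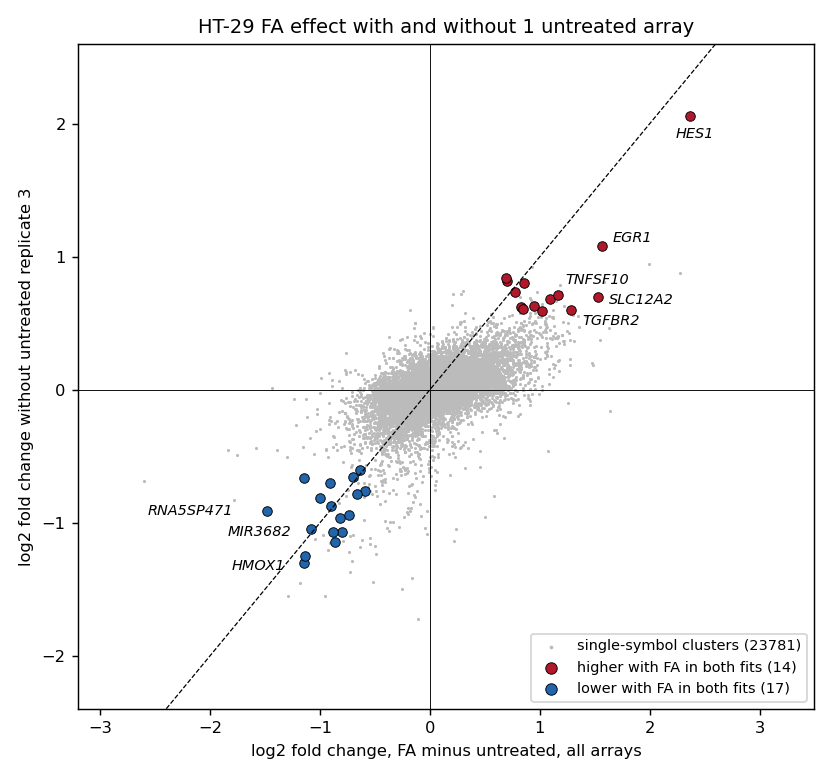
Log2 fold change (FA minus untreated) of 23781 single-symbol clusters with all 12 arrays (x axis) and without untreated replicate 3 (y axis); the dashed line marks equal values. Red points are the 14 clusters that met the criteria in both fits and were higher with FA, blue points the 17 that were lower. HES1 stands farthest from 0 among the 31, at 2.37 and 2.06.

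HES1, the transcriptional repressor switched on by Notch that holds intestinal progenitors undifferentiated, had the largest effect of the 31. Its log2 signal was 11.90, 13.28 and 12.42 on the FA-treated arrays, against 10.21, 10.74 and 9.55 on the untreated arrays. All FA-treated arrays read above all untreated ones, with a gap of 1.16 log2 units between the lowest treated and the highest untreated array. The means were 12.53 ± 0.70 and 10.17 ± 0.60 (SD, n = 3 each), an effect of 2.37 ± 0.36 (SE), which is 5.16-fold. Without the third untreated array it was 2.06 ± 0.37, or 4.17-fold, and without the second FA-treated array as well it was 1.69. By limma the adjusted p was 0.587 with all arrays and 0.638 without the third untreated array. A second HES1 cluster, which does not carry this single symbol in the platform table and is named from the list of the study, read 13.22, 14.68 and 13.48 with FA and 11.51, 11.86 and 9.33 without. It too was separated, with effects of 2.89 and 2.11 in the fits with and without that array.

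The promoter of HES1 is shown because it holds a pair of the short sites bound by RBPJ, the DNA-binding partner of Notch. The 250 bases before the RefSeq start, chr3:194135898-194136147 on the plus strand of GRCh38.p14, are printed with each TGGGAA in capitals.
HES1: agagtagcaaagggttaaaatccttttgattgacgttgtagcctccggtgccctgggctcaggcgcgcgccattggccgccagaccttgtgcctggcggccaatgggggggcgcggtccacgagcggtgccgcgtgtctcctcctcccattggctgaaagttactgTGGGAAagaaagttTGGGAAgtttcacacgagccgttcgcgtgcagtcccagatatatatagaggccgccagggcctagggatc
The matches begin at -84 and -70 from the start. TGGGAA on either strand occurs in the same window of 20.8% of 35116 RefSeq promoters, so a match describes the sequence and is no evidence of binding. The array measured RNA and says nothing of occupancy at these sites.

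NRARP, a Notch target that feeds back on the Notch complex, was the only other gene of its list of 11 HES, HEY and further Notch targets to meet the criteria, and it did so in both fits. It read 7.62, 8.12 and 7.84 with FA and 7.14, 7.21 and 5.94 without, so that the groups did not overlap. The effect was 1.10 ± 0.34 with all arrays and 0.69 ± 0.25 without the third untreated array (SE; limma, adjusted p = 0.587 with all arrays, and adjusted p = 1.00 without). No TGGGAA lies in its 250 bases. The other 9 members, among them HEY1, HEYL and HES7, met the criteria in neither fit, and the median of the list was -0.05 with all arrays and 0.02 without, against -0.02 and 0.00 over all genes. HEY1 had 3.80, 3.79 and 3.84 with FA and 3.80, 3.79 and 4.26 without, near the low end of the array's range. Of 24 Notch ligands, receptors and processing enzymes 0 met the criteria in either fit. APH1A, a subunit of the gamma-secretase that cuts Notch, had the smallest unadjusted p among them at effects of 0.25 and 0.18, and MAML2, a coactivator in the Notch complex, was at 0.54 with all arrays and 0.27 without the third untreated array.

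EGR1, a zinc finger factor that growth factor signalling induces within minutes through ERK, was the second largest of the higher clusters. It read 10.12, 11.51 and 9.90 with FA and 9.23, 9.63 and 7.97 without. The groups were separated by 0.27 log2 units, and the highest value came from the second FA-treated array. The effect was 1.57 ± 0.50 with all arrays (SE; 2.96-fold, limma, adjusted p = 0.587) and 1.08 ± 0.47 without the third untreated array (adjusted p = 1.00). Without the second FA-treated array in addition it was 0.58. Its promoter window, chr5:138465229-138465478 on the plus strand of GRCh38.p14, is shown with its CArG boxes, the sites of serum response factor, in capitals.
EGR1: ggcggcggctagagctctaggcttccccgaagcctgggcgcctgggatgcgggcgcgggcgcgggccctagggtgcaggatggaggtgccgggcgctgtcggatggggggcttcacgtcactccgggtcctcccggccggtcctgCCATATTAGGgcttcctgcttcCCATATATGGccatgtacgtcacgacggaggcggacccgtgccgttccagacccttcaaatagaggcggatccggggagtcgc
The boxes begin at -105 and -83, and a TGGGAA on the minus strand at -86 overlaps the second. A CArG box was found in 1.16% of the 35116 promoter windows.

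Other genes of the ERK and AP-1 output had smaller effects than EGR1. Of 29 measured, 21 had a higher and 8 a lower mean with FA in the fit with all arrays (median 0.12), and 18 and 10 without the third untreated array (median 0.03). KLF6, an early response zinc finger factor, read 11.16, 11.48 and 11.35 with FA against 10.77, 10.89 and 9.83 without, an effect of 0.83 that met the criteria with all arrays and of 0.50 that did not without the third untreated array. FOS, a subunit of AP-1, had effects of 0.54 and 0.34 and met the criteria in neither. In 6 of the 29 the FA-treated arrays lay wholly above the untreated ones and in 0 wholly below, where 1.88% of all single-symbol clusters lay wholly above. This count includes the third untreated array, which read a median of 0.66 below its companions at signals of 8 to 10. No such count without that array is given, and the base share holds many dim and tied clusters, so the 2 shares are not a like comparison.

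**Figure D3:**
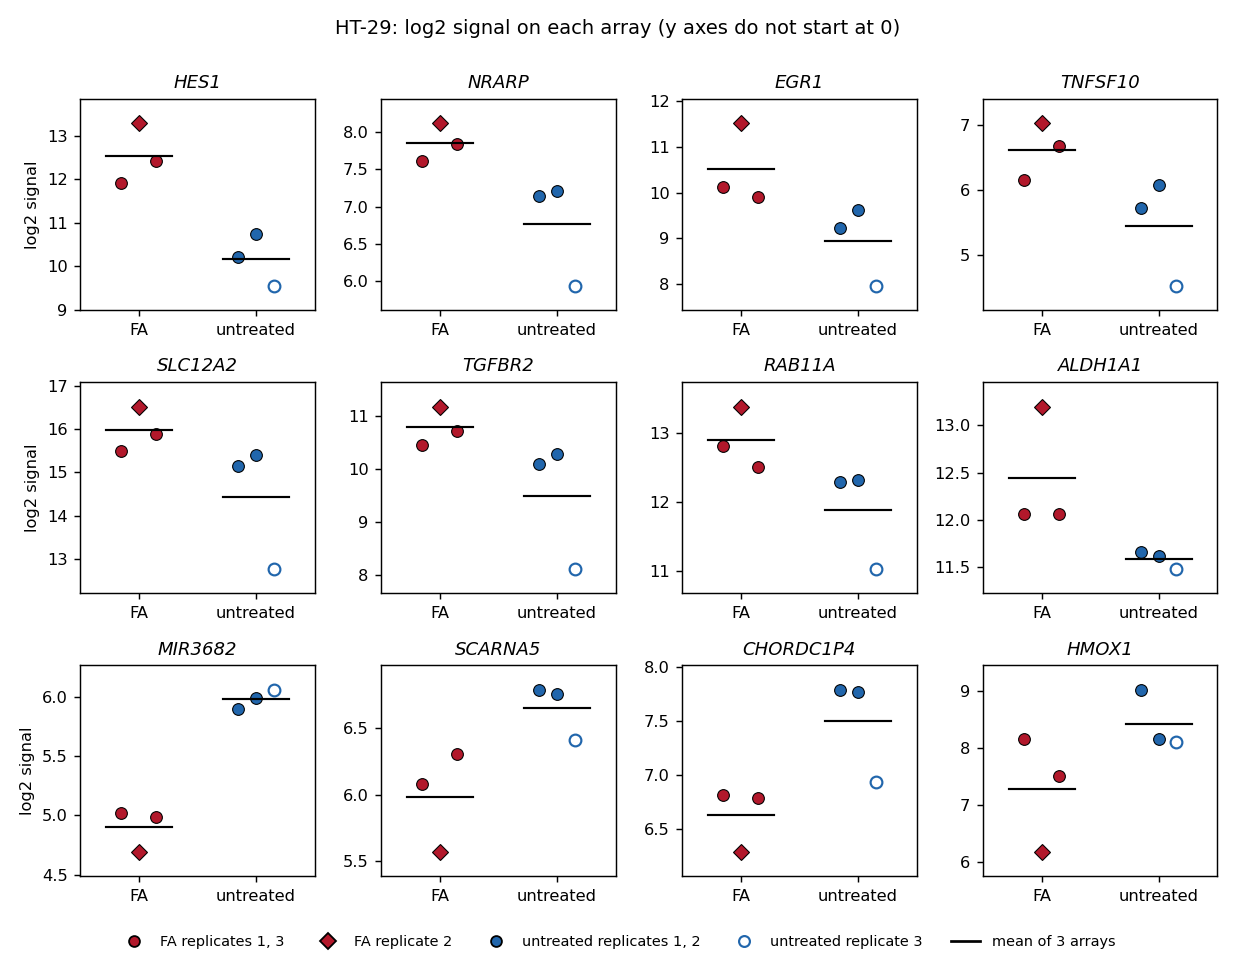
Log2 signal on each HT-29 array for 12 of the 31 clusters, FA-treated arrays on the left of each panel and untreated arrays on the right, with the mean of 3 arrays as a line. Diamonds mark FA replicate 2 and open circles untreated replicate 3. HES1, NRARP and MIR3682 are separated between the groups. HMOX1 overlaps, with FA replicate 1 at 8.15, equal to untreated replicate 2 and above untreated replicate 3 at 8.11.

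Several of the remaining higher genes act at the cell surface or in vesicle traffic. SLC12A2, the sodium-potassium-chloride cotransporter that loads chloride into secreting epithelia, read 15.50, 16.52 and 15.89 with FA and 15.15, 15.40 and 12.77 without. TGFBR2, the receptor through which TGF-beta restrains epithelial growth, read 10.46, 11.18 and 10.72 with FA and 10.10, 10.28 and 8.12 without. RAB11A, a GTPase of recycling endosomes, read 12.81, 13.39 and 12.51 with FA and 12.30, 12.32 and 11.03 without. In all 3 the groups were separated, by 0.10 to 0.19 log2 units, and the third untreated array was far below its companions. Their effects were 1.53, 1.29 and 1.02 with all arrays and 0.70, 0.60 and 0.59 without it, close to the fold threshold of 1.5 in that fit. TNFSF10, the death ligand TRAIL, read 6.15, 7.02 and 6.67 with FA and 5.72, 6.08 and 4.53 without, effects of 1.17 ± 0.38 and 0.71 ± 0.29 (SE). The lowest treated and the highest untreated array were 0.07 apart.

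ALDH1A1, a retinaldehyde dehydrogenase used as a stem cell marker, depended little on the third untreated array. It read 12.06, 13.20 and 12.06 with FA and 11.66, 11.62 and 11.48 without, so the untreated arrays lay close together and the second FA-treated array stood 1.14 above the other treated ones. The effect was 0.85 ± 0.25 and 0.80 ± 0.30 (SE) in the fits with and without that untreated array, and 0.42 when the second FA-treated array was left out too. MAGT1, a magnesium transporter and subunit of the oligosaccharyl transferase, had effects of 0.83 and 0.62, and the RNA-binding proteins CSTF2T and HNRNPM 0.95 and 0.63, and 0.78 and 0.74. The groups did not overlap in these 3 genes. The chromatin reader BRD2 was represented by a cluster of an alternative haplotype of chromosome 6 with effects of 0.70 and 0.82. That cluster was dim, at 4.98, 4.58 and 4.63 with FA and 4.22, 3.60 and 4.27 without. The means of the other BRD2 clusters over all 12 arrays were 9.18 to 10.89. The other 7 BRD2 clusters had effects of -0.01 to 0.09 with all arrays and of -0.01 to 0.02 without the third untreated array, so the clusters of this gene disagree. The microRNA locus MIR4760 was at 0.69 and 0.84 with overlapping groups.

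On the lower side MIR3682, a microRNA locus on chromosome 2, had the smallest p of all single-symbol clusters with all arrays. It read 5.02, 4.69 and 4.99 with FA, against 5.90, 5.99 and 6.06 without. Here the third untreated array lay beside its companions and the groups were 0.88 log2 units apart. The means were 4.90 ± 0.18 and 5.98 ± 0.08 (SD, n = 3 each). The effect was -1.08 ± 0.13 with all arrays and -1.04 ± 0.15 without the third untreated array (SE), with an adjusted limma p of 0.466 and 0.410. MIR3145, on chromosome 6, read 5.43, 4.29 and 5.41 with FA and 6.37, 5.64 and 5.57 without, effects of -0.82 and -0.96. MIR450A2, on the X chromosome, read 4.11, 3.88 and 4.19 with FA and 5.26, 4.19 and 6.16 without, effects of -1.14 and -0.67, and its groups met at 4.19. MIR548Z had effects of -0.63 and -0.61.

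The mature strands of 4 microRNA loci that met the criteria in both fits, all but the MIR548 ones, are given from RefSeq with bases 2 to 8, the seed that pairs with targets, in capitals. MIR3668 is added as the single locus that was higher only without the third untreated array. The cluster reads RNA of the locus, so the level of a mature strand was not measured.
miR-3682-3p: uGAUGAUAcagguggagguag
miR-3682-5p: cUACUUCUaccuguguuaucau
miR-3145-3p: aGAUAUUUugaguguuuggaauug
miR-3145-5p: aACUCCAAacacucaaaacuca
miR-450a-5p: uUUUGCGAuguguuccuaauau
miR-450a-2-3p: aUUGGGGAcauuuugcauucau
miR-4760-3p: aAAUUCAUguucaaucuaaacc
miR-4760-5p: uUUAGAUUgaacaugaaguuag
miR-3668: aAUGUAGAgauugaucaaaau
No seed is shared by any 2 of these 9 strands. On GRCh38.p14 the 3p strand of miR-3682 lies at chr2:53849136-53849156 and its 5p strand at chr2:53849170-53849191, both on the minus strand. Those of miR-3145 lie at chr6:138435223-138435246 (3p) and chr6:138435262-138435283 (5p), also on the minus strand. A cluster named MIR548T at a signal near 14 had effects of -1.14 and -1.25, but its cluster identifier places it on chromosome 7 while RefSeq places that gene on chromosome 4, so the name is uncertain. The MIR548T cluster on chromosome 4 had effects of -0.50 and -0.21.

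The other lower loci were mostly short structured RNAs, pseudogenes and weakly expressed genes. SCARNA5, a guide RNA of Cajal bodies that directs modification of spliceosomal RNA, read 6.08, 5.57 and 6.31 with FA and 6.79, 6.76 and 6.41 without, effects of -0.67 and -0.79 with separated groups. CHORDC1P4, a transcribed pseudogene, read 6.82, 6.29 and 6.79 with FA and 7.79, 7.77 and 6.94 without, effects of -0.87 ± 0.22 and -1.15 ± 0.15 (SE). Its groups were 0.12 apart with all arrays and 0.95 apart without the third untreated array. The 5S ribosomal RNA pseudogenes RNA5SP471 and RNA5SP117 had effects of -1.49 and -0.91, and of -0.91 and -0.70. DEFB131B, a beta-defensin gene, the testis metalloprotease gene ADAM20 and the olfactory receptor gene OR1L3 had effects of -0.88 to -1.0 with all arrays and of -0.81 to -1.07 without the third untreated array. No array of these 3 genes exceeded 5.94, low on the scale of the chip. ADAM20P1, CAPRIN2, which encodes an RNA-binding protein, RPS15AP10 and a U6 small nuclear RNA cluster met the criteria in both fits with overlapping groups. Their effects were -0.80 and -1.07 for ADAM20P1, -0.73 and -0.94 for CAPRIN2, -0.59 and -0.76 for RPS15AP10, and -0.70 and -0.66 for the U6 cluster.

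HMOX1, the heme oxygenase that NRF2 induces under oxidative stress, was a protein-coding gene of intermediate signal on the lower side. It read 8.15, 6.18 and 7.52 with FA and 9.02, 8.15 and 8.11 without, so 1 treated array equalled an untreated one and read above another. The effect was -1.14 ± 0.43 with all arrays and -1.30 ± 0.51 without the third untreated array (SE; limma, adjusted p = 0.587 with all arrays, and adjusted p = 1.00 without). It was -0.75 when the second FA-treated array, the lowest of the 6, was left out too. GCLM, which encodes the modifier subunit of the enzyme that starts glutathione synthesis, read 12.05, 10.11 and 11.70 with FA and 12.68, 12.08 and 12.03 without, effects of -0.98 and -1.09. It met the criteria with all arrays and not without the third untreated array.

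The wider list of NRF2 targets, the antioxidant and detoxification genes, leaned to the lower side only in part of the fits. Of 23 measured genes 12 had a higher and 11 a lower mean with all arrays (median 0.00), against 41.3% higher and 55.6% lower over all genes. Without the third untreated array 5 were higher and 18 lower (median -0.17), against 42.4% and 42.8%, and without the second FA-treated array as well 5 and 17 (median -0.09). The sign of this median also turned with the scaling, at -0.19 after quantile normalization and 0.16 with arrays centred on their medians. In 15 of the 23 the second FA-treated array read below both other treated arrays, with a median distance of -0.34, where the median over all genes was 0.00. GSR, glutathione reductase, had effects of -0.38 and -0.25, and OSGIN1 of -0.34 and -0.24. NQO1, the quinone reductase of the list, had 15.35, 15.35 and 15.19 with FA and 15.30, 15.20 and 14.78 without.

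ATF4 targets, which are induced when amino acids run short, had mostly lower means in these fits, although their median was 0.01 with arrays centred on their medians. Of 24 genes 18 were lower and 6 higher with all arrays (median -0.14), 21 lower and 2 higher without the third untreated array (median -0.17), and 18 lower and 4 higher without both arrays (median -0.06), while none met the criteria in the fits with or without the third untreated array. DDIT3, the stress factor CHOP, read 6.49, 5.75 and 6.28 with FA and 6.79, 6.43 and 7.43 without, effects of -0.71 and -0.44. ASNS, asparagine synthetase, read 8.76, 7.46 and 7.91 with FA and 8.75, 8.54 and 8.26 without, effects of -0.47 and -0.60. DDIT4, an inhibitor of mTORC1, and NUPR1, a stress-induced chromatin protein, had effects of -0.55 and -0.36, and of -0.42 and -0.46. In each of these 4 genes the groups overlapped, and in 14 of the 24 the second FA-treated array was the lowest of its group. SLC7A11, the cystine transporter on both lists, named after its values were seen, read 14.22, 12.25 and 13.40 with FA and 14.91, 13.97 and 13.71 without. Its effects were -0.91 and -1.15, and it met the criteria in neither fit.

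Effects on the enzymes and carriers of folate itself were small. Of 27 measured genes 18 had a higher and 8 a lower mean with all arrays (median 0.12), and 14 and 10 without the third untreated array (median 0.01), and 1 gene met the criteria in the first fit and 0 in the second. That gene was MTHFD1, the trifunctional cytosolic enzyme that interconverts 1-carbon forms of tetrahydrofolate, with 9.44, 10.39 and 9.34 with FA and 9.09, 9.21 and 8.40 without. Its groups were 0.13 apart, with effects of 0.82 ± 0.32 and 0.57 ± 0.34 (SE). MTHFD2, its mitochondrial relative, read 12.14, 10.96 and 11.75 with FA and 12.21, 11.91 and 11.43 without, effects of -0.23 and -0.44 with overlapping groups. DLD, a subunit shared by the glycine cleavage system, had 10.03, 10.36 and 9.99 with FA and 9.82, 9.73 and 9.32 without, effects of 0.50 and 0.35 that fell short of the fold threshold.

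Among carriers and enzymes of nucleotide synthesis some read nearly the same in both groups. SLC19A1, the reduced folate carrier, read 5.82, 5.81 and 5.84 with FA and 5.84 on each untreated array. TYMS, thymidylate synthase, read 9.14, 9.14 and 9.10 with FA and 9.14, 9.09 and 8.68 without, and FOLR1, the folate receptor alpha, 5.43, 5.50 and 5.43 with FA and 5.43, 5.43 and 5.13 without. The 2 purine enzymes that take a formyl group from folate, GART and ATIC, had effects of 0.22 and 0.12, and of 0.25 and 0.14. Other purine enzymes had larger effects with all arrays, GMPS, which makes GMP, 0.67 and 0.19 and PAICS 0.42 and 0.22, and none of 21 genes of nucleotide synthesis met the criteria in either fit. Methionine synthase, MTR, had 0.35 and 0.11 and the mitochondrial serine hydroxymethyltransferase SHMT2 0.16 and 0.04. Of 16 genes of the methionine cycle and polyamines 0 met the criteria, with a median of 0.20 with all arrays and 0.02 without the third untreated array. SMS, spermine synthase, was separated between the groups, at 12.95, 13.24 and 12.91 with FA and 12.65, 12.75 and 12.63 without.

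**Figure D4:**
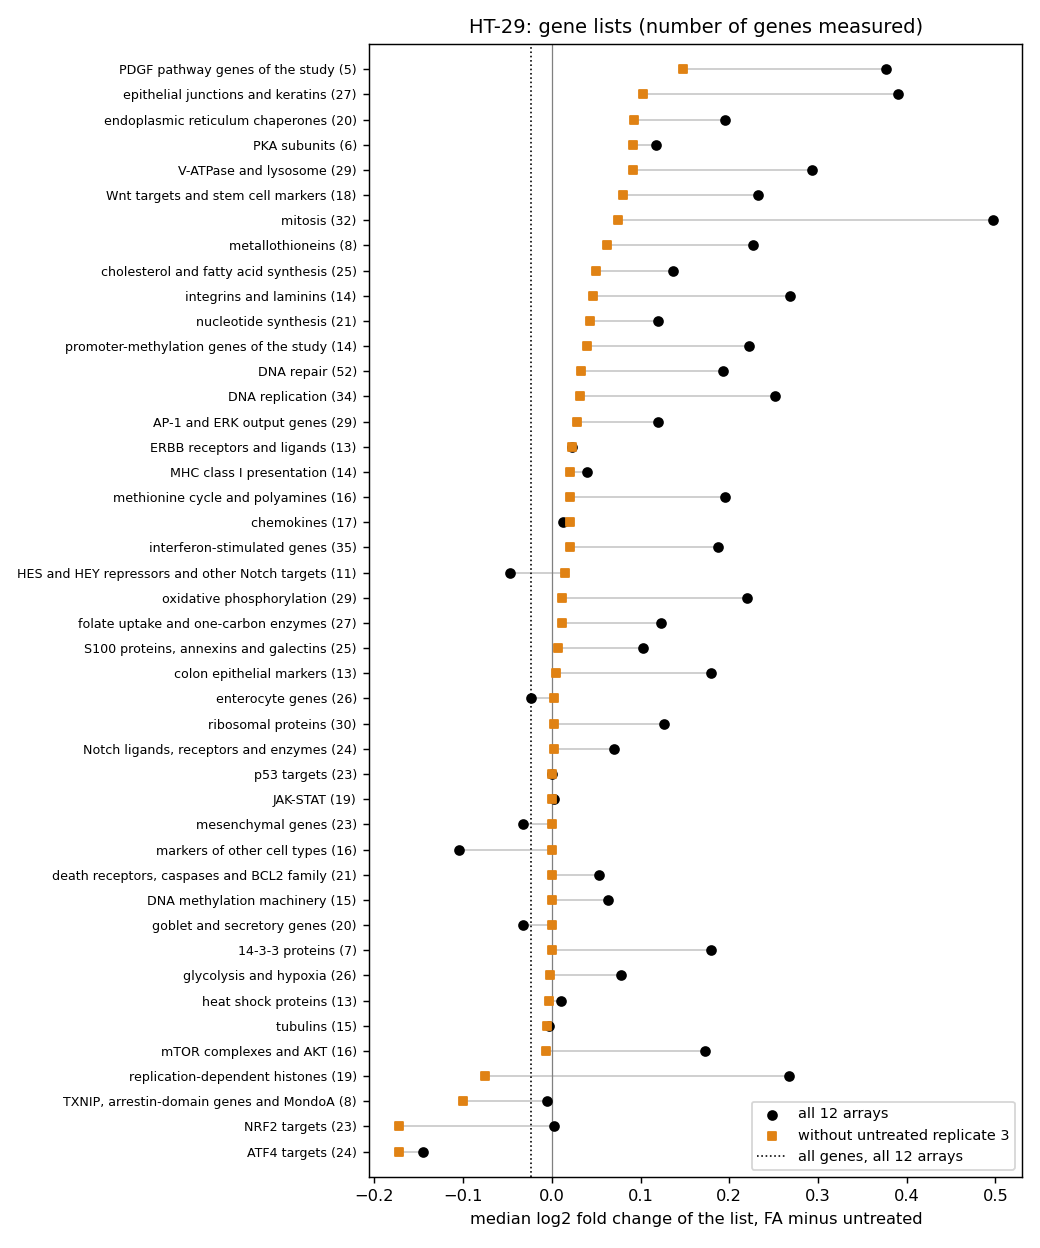
Median log2 fold change (FA minus untreated) of 44 gene lists, with the number of measured genes in brackets, with all 12 arrays (black circles) and without untreated replicate 3 (orange squares); the dotted line is the median of all genes with all arrays. The median of mitosis genes is 0.50 with all arrays and 0.08 without the array, while that of ATF4 targets is -0.14 and -0.17.

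Lists of bright genes lost most of their distance from 0 with the third untreated array. Mitosis genes had a median of 0.50 with all arrays and 0.08 without that array, on which they read a median of 1.06 below its companions, and epithelial junction and keratin genes had 0.39 and 0.10. DNA replication genes had 0.25 and 0.03, and 3 of the 34, the primase subunit PRIM1 (0.92 and 0.36) and the helicase subunits MCM6 (0.60 and 0.32) and MCM7 (0.70 and 0.36), met the criteria only with all arrays. Of 18 Wnt targets and stem cell markers, the progenitor factor SOX9 (1.12 and 0.54), the hyaluronan receptor CD44 (1.05 and 0.52), PROM1 (0.72 and 0.46) and the cyclin CCND1 (0.60 and 0.31) met the criteria only with all arrays. The same held for FANCF of the Fanconi anaemia repair complex (0.91 and 0.55), the matricellular factor CCN2 (0.65 and 0.45) and the interferon-induced IFITM3 (1.01 and 0.54) and SAMD9 (0.84 and 0.34). The desmosomal cadherin DSG2 (0.81 and 0.33), the epithelial cadherin CDH1 (0.86 and 0.36), topoisomerase TOP2A (0.77 and 0.37) and the chaperone CALR (0.84 and 0.45) also met the criteria only with all arrays. MT1H, a metallothionein, was separated between the groups with effects of 0.55 and 0.46, under the fold threshold.

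The clusters that met the criteria in only 1 of the fits differed in kind. With all arrays alone there were 241, of which 200 were higher. In 103 of the 241 the groups did not overlap, where 3.69% of all single-symbol clusters were separated. The 241 were picked by their effect on these arrays, which favours separation. The largest were HACD3, an enzyme of very long chain fatty acid elongation (2.27 with all arrays and 0.88 without the third untreated array), SLITRK6 (1.99 and 0.94), CFTR, the chloride channel of cystic fibrosis (1.58 and 0.81), SCD, the stearoyl-CoA desaturase (1.35 and 0.55), and the scaffold protein IQGAP1 (1.30 and 0.56). The largest lower ones were IGHD2-21 (-1.79 and -0.83), MIR711 (-1.15 and -0.43), MIR135A2 (-1.06 and -0.48), the long noncoding RNA LUCAT1 (-1.05 and -1.12) and GCLM. Without the third untreated array alone there were 42, of which 41 were lower. MIR3668 was the exception, with 4.29, 4.05 and 4.05 with FA and 3.60, 3.38 and 4.82 without, an effect of 0.64 that was 0.20 with all arrays.

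The 5 largest lower loci of that set were noncoding. A cluster named MIR548X had an effect of -1.73 without the third untreated array and -0.11 with it, at 11.66, 10.32 and 11.44 with FA and 12.62, 13.11 and 8.02 without. Its identifier places it on chromosome 16 and RefSeq places the gene on chromosome 21. RNU6-26P, a U6 pseudogene, had -1.55 and -0.95, HNRNPU-AS1, an antisense RNA, -1.37 and -0.72, N4BP2L2-IT2 -1.23 and -0.49, and ASAP1-IT1 -1.22 and -0.73. In these 5 the third untreated array read below its companions and the effect was larger in size without it. In all 42 the FA-treated arrays and the first and second untreated arrays did not overlap. They were picked by their effect on those same arrays, which favours such separation. The share of all single-symbol clusters separated in this way is not given.

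Genes that the study had named for HT-29 were chosen on these samples, so their values describe them and are no independent evidence. Many of its leading clusters do not carry that gene as a single symbol in the platform table and are named here from its list. Of its 10 leading higher clusters 10 met the criteria with all arrays and 3 without the third untreated array, the 2 of HES1 and FAM210B, whose effects were 2.10 and 1.02. ATP6AP1, a subunit of the vacuolar proton pump, had effects of 1.08 and 1.06 and met the criteria only with all arrays. Of the 10 leading lower clusters 9 met the criteria with all arrays and 5 without: FAM95B1 (-1.27 and -1.21), ELFN2 (-1.0 and -0.99), DNM1P46 (-1.20 and -1.41), MIR450A2 and RN7SL40P (-0.69 and -0.59). ELFN2 read 4.69, 4.12 and 4.35 with FA and 5.55, 5.21 and 5.40 without, and its groups did not overlap. The platform clusters with the same symbols differed: ELFN2 had effects of -0.05 and -0.01 there, FAM95B1 -0.03 and 0.00, DNM1P46 -0.09 and 0.00, FAM210B 0.12 and 0.08 and ATP6AP1 0.42 and 0.09. Of the leading genes that had both kinds of cluster HES1 was the one whose listed cluster and platform cluster both met the criteria. SFN, the 14-3-3 sigma gene, read 11.84, 10.82 and 10.76 with FA and 11.89, 11.56 and 12.13 without, effects of -0.72 and -0.59 that missed the criteria.

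Effects varied among genes that the study linked to promoter methylation. Leaving MAPKAP1 and RPPH1 aside, 12 of them were read in their platform clusters. Of these 12, 3 met the criteria with all arrays: the receptors ROR1 (0.99) and ERBB3 (0.75) and the ER membrane protein TMBIM6 (0.67). Without the third untreated array 0 of the 12 did, and those 3 genes were at 0.54, 0.56 and 0.39. The text of the study does not give its clusters for the 12, so its calls were not tested. MAPKAP1, a subunit of mTORC2, had effects of 1.39 and 0.80 in the cluster the study lists, which met the criteria with all arrays only, and of 0.37 and 0.06 in its platform cluster, which did not. SKIL, a repressor of SMAD signalling, read 11.70 on 5 of the 6 arrays and 10.73 on the third untreated array. ATG16L1 read 6.30 on 5 arrays and 6.41 on the first untreated one. RPPH1, the RNA of ribonuclease P, read 6.00, 6.18 and 6.23 with FA and 6.23, 6.17 and 7.39 without, effects of -0.46 and -0.06. The study reported its PDGF pathway genes as overexpressed, among them SRGAP2 and SRGAP2C, which are not given here. In their platform clusters SRGAP1, SRGAP2B, RAB11B and FOSB had effects of 0.26 to 0.51 with all arrays. Without the third untreated array the effects were -0.04 to 0.23, and none of these 4 met the criteria. The text of the study does not give its clusters for these 4, so its calls were not tested. STAT3, a cytokine-activated transcription factor that the study also placed in this pathway, had effects of 1.11 and 0.58 in the listed cluster, which met the criteria with all arrays only, and of 0.25 and 0.18 in its platform cluster, which did not. YWHAZ, a 14-3-3 protein, was the hub of the HT-29 network in the study, which reported it as downregulated by FA. Its platform cluster read 11.46, 11.42 and 11.42 with FA and 11.42, 11.42 and 10.87 without, effects of 0.20 and 0.01. The text of the study does not give its cluster for YWHAZ, so that call was not tested.

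Beside HT-29, the 31 clusters had other values in SW480. Of the 14 that were higher with FA in HT-29, 9 had a lower and 5 a higher mean with FA in SW480. Of the 17 lower ones 12 had a higher and 5 a lower mean there. These counts include SW480 effects close to 0, such as -0.02 for ALDH1A1 and 0.06 for MIR548Z. The shares of higher and lower means over all clusters in SW480 are not given. TNFSF10 read 6.74, 6.60 and 6.74 in FA-treated SW480 and 7.59, 8.41 and 7.91 in untreated SW480, an effect of -1.28 ± 0.38 (SE) against 1.17 ± 0.38 in HT-29. HES1 in SW480 read 13.91, 13.77 and 14.26 with FA and 14.13, 14.11 and 14.45 without, an effect of -0.25 at a level above that of either HT-29 group. MIR3682 had 0.34 in SW480, CHORDC1P4 0.32 and SLC7A11 2.02, with opposite signs to those in HT-29. BRD2, whose cluster had 0.78 in SW480, and TNFSF10 were the only ones of the 31 to meet the criteria there.

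The difference between the lines was tested with limma as the HT-29 effect minus the SW480 effect, and 0 single-symbol clusters passed the adjusted threshold, with all arrays or without the third untreated HT-29 array (unadjusted p under 0.05 in 630 and 1239). Of the 31 clusters 22 and 18 had an unadjusted p under 0.05 for the difference. The 31 were picked for their HT-29 effect, which is part of this difference. Small p-values among them were thus favoured beforehand, and these counts are no evidence of a difference between the lines. With all arrays the difference was -1.42 for MIR3682 (adjusted p = 0.576), 2.62 for HES1 (adjusted p = 0.939) and 2.45 for TNFSF10 (adjusted p = 0.939). The effects are thus given side by side and not as a shown difference between the lines.

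**Figure D5:**
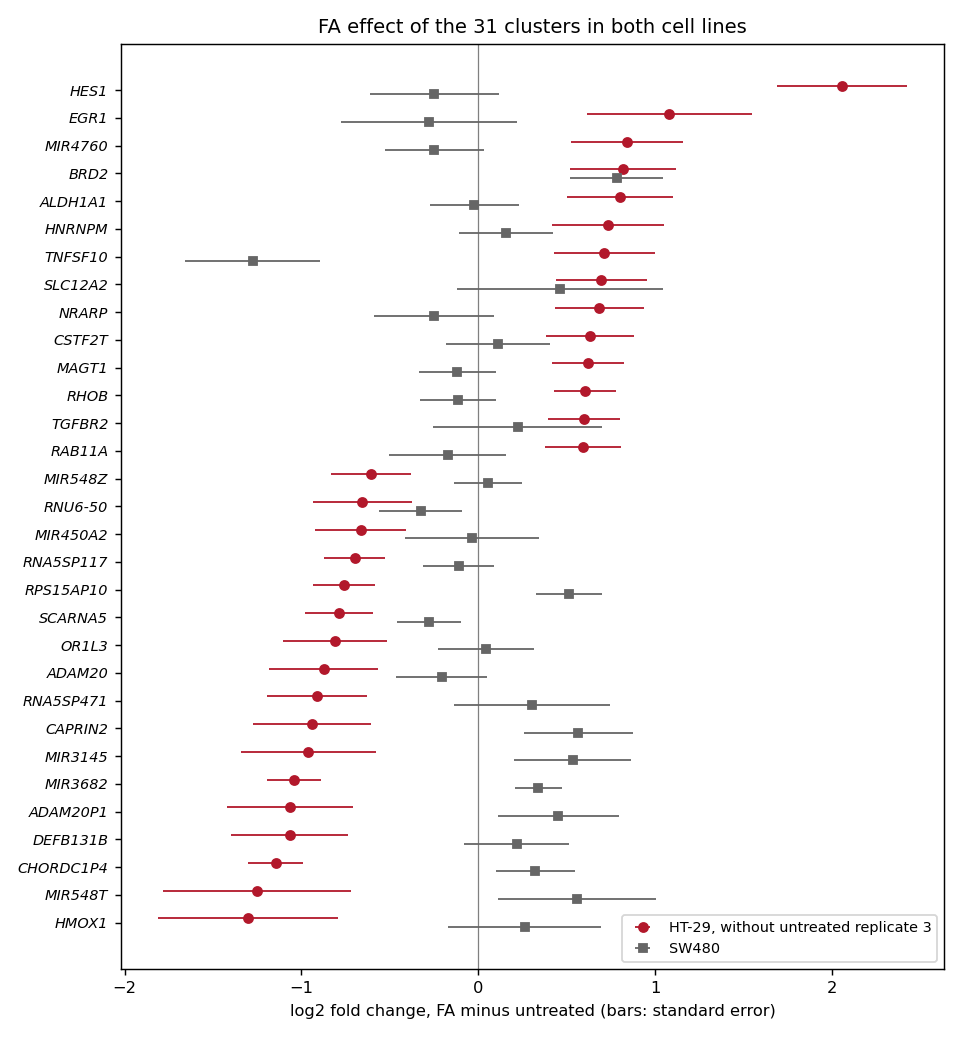
Log2 fold change (FA minus untreated) of the 31 clusters in HT-29 without untreated replicate 3 (red circles) and in SW480 (grey squares), with standard errors as bars. HES1 is at 2.06 in HT-29 and -0.25 in SW480, and TNFSF10 at 0.71 and -1.28.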

How the data were processed

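The deposited values are log2 signals per transcript cluster, which the authors made with SST-RMA (background subtraction, normalization and summarisation) in Transcriptome Analysis Console 4.0 from Human Transcriptome Array 2.0 chips. RMA alone is named in the labels, with no version. The genome build of the clusters is not given in the sources used here. Every one of the 12 columns entered (0 set aside, 0 missing values) with no added scaling or filter.

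limma 3.58.1 in R 4.3.3 fitted 4 group means with 8 residual degrees of freedom (7 without HT-29_0 replicate 3) and moderated variances, with Benjamini-Hochberg adjustment across 67528 clusters. The fit was tested on simulated data. In the gene lists a gene stands as its brightest single-symbol cluster. The members, the 44 gene lists, the tests and the named genes were chosen with earlier results of these data known. Named were up to 10 higher and 10 lower clusters that met the criteria in both fits without overlap, up to 5 each way that met them in only 1 fit, the genes the study names, up to 4 genes per list by smallest p, and members of the folate list. Other genes were named after their values were seen. The values of 1 of the clusters that met the criteria in both fits are not reported here.

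Variations were leaving out each array, HT-29 arrays alone, quantile normalization, median centring, a replicate block, robust moderation with a trend, array weights, a filter on dim clusters, a fold change of at least 2, all clusters, distinct symbols and, for lists, averaging a gene's clusters. Leaving out 2 arrays together and array weights estimated gene by gene were chosen after seeing the data. Biotypes, chromosomes and sequences are from RefSeq (GRCh38.p14). Plotting used Python 3.11.15 and matplotlib 3.10.9.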

Additional observations from a re-analysis of the deposited data

Results flagged for a closer look

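In 2 of the clusters described above the arrays of HT-29 and of SW480 moved in opposite directions, with no overlap between FA-treated and untreated arrays in either line. Both had been picked for their HT-29 effect. In HT-29 alone 3.69% of single-symbol clusters were separated, and the share with the opposite pattern in both lines is not given here. For TNFSF10 the HT-29 effect minus the SW480 effect was 2.45, at 1.17 in HT-29 and -1.28 in SW480. For CHORDC1P4 it was -1.19, at -0.87 in HT-29 and 0.32 in SW480, where it read 6.20, 6.11 and 6.12 with FA and 5.88, 5.93 and 5.65 without. By limma the adjusted p of both differences was 0.939 with all arrays, and without the third untreated HT-29 array it was 0.638 for TNFSF10 and 0.422 for CHORDC1P4. Neither difference passed the threshold. Among the other members of the gene lists that were looked at singly, the same pattern was seen in IFIT2 and IL6R. IFIT2 was at 0.28 in HT-29 and -0.40 in SW480, and IL6R at -0.27 in HT-29 and 0.12 in SW480. The HT-29 groups were barely apart, by 0.02 log2 units for IFIT2 and 0.01 for IL6R. The adjusted limma p of the difference was 0.939 for both. How many members were looked at is not given.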

How the results depend on the processing

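The number of single-symbol clusters meeting the criteria, 272, depended strongly on which arrays entered. Leaving out 1 HT-29 array at a time gave 49 (without FA replicate 2) to 1535 (without untreated replicate 2), with 73 without untreated replicate 3 and 1031 without untreated replicate 1. It was 38 without untreated replicate 3 and FA replicate 2, 40 with HT-29 arrays alone, 44 with HT-29 arrays alone and no untreated replicate 3, 82 with weights estimated gene by gene, 53 at a fold change of at least 2 and 919 over all clusters. Array weights gave 271, of which 77.1% were lower, against 21.3% with equal weights. The number with an adjusted p below 0.05 was 0 in every other fit and 1239 with array weights, an estimate that did not converge. The 31 clusters kept their direction under each of the 15 variations in which they were refitted, and 10 to 31 of them met the criteria. One of these variations, without untreated replicate 3, was itself used to pick the 31. The rest refitted the same arrays, so the kept direction was favoured beforehand and is no independent support.

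With a replicate block within each cell line 439 clusters met the criteria and 30 of the 31 did. The replicate numbers share only a label. Deviations of same-numbered HT-29 arrays correlated at -0.065, 0.157 and -0.023, and only the arrays numbered 2 correlated best with their own number.

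Some effects changed sign, most of them small but not those of MIR548X and N4BP2L2-IT2, and the cause was not tested. Without untreated replicate 2, MIR3668 was at -0.08 (up to 0.64 with 1 array left out and 0.68 without both). MIR548X ran from -1.73 to 0.82 over left-out arrays (0.30 without FA replicate 2) and was at 0.043 with centred arrays. N4BP2L2-IT2 ran from -1.23 to 0.09 and MTHFD2 from -0.49 to 0.10. SRGAP2B ran from -0.038 to 0.41, and was at -0.038 with HT-29 arrays alone and no untreated replicate 3, -0.074 with array weights, -0.072 with gene-by-gene weights and -0.12 without both arrays. SRGAP1 was at -0.07 without both arrays and at most 0.77 with 1 left out. TCEAL1 ran from -0.10 to 0.12, with 0.12 in HT-29 alone without untreated replicate 3, 0.15 centred, 0.059 with array weights, and 0.10 with gene-by-gene weights and without both arrays. SLC39A8 was at -0.0052 with array weights, -0.0045 with gene-by-gene weights and -0.015 without both arrays, and at most 0.042 with 1 left out. Under quantile normalization YWHAZ was at -0.044, PCNA at -0.011, SHMT2 at -0.10, TYMS at -0.090 (-0.012 with array weights) and SLC19A1 at 0.045 (0.14 centred). ATG16L1 was at 0.12 centred.

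With 3 arrays a group, and 1 untreated array compressed, the number of arrays limits precision. Dim clusters lie near the low end of the signal range.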
